A study of Homo sapiens with 6 samples.

Results

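The zinc-finger genes of chromosome 19 were examined for their recovery with CELF1 (also CUGBP1), an RNA-binding protein, in melanoma cells. Members were the protein-coding genes annotated on chromosome 19 of GRCh37 (GENCODE version 44) whose symbol is ZNF followed by digits. There were 245 such genes of 19833 protein-coding genes, 239 with digits only and 6 with a letter after the digits, and 132 of them lie on the plus strand. They were set against 262 ZNF genes of other chromosomes and 1188 other protein-coding genes of chromosome 19.

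The study immunoprecipitated CELF1 from formaldehyde-fixed, otherwise untreated cells of the established human melanoma lines SK-Mel-103 and UACC-62, grown in DMEM with fetal bovine serum. The IP used an anti-CUGBP1 antibody on protein A beads, and RNA of the lysate served as input. 3 IP samples were analyzed, each with its own input, 1 of SK-Mel-103 (replicate 1) and 2 of UACC-62 (replicates 1 and 3). With a single sample, SK-Mel-103 has no SD, and the labels do not say whether the UACC-62 replicates were separate cultures, so that the SD of UACC-62 covers only the spread between these 2 samples.

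Most of these genes encode proteins with tandem C2H2 zinc fingers that read DNA, and many carry a KRAB domain at the N-terminus. KRAB recruits TRIM28 (KAP1), a scaffold that brings histone methylation and HP1 proteins to silence retroelements and other loci. The genes arose by repeated local duplication, lie in clusters along chromosome 19, and usually hold all their fingers in the last coding exon, which continues into the 3′ UTR. CELF1 is known for binding GU-rich elements in 3′ UTRs, where it favors mRNA decay, and for roles in alternative splicing.

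The deposited lists hold windows of 20 bp (bins) in which the IP reads passed a peak caller with the input as covariate. Between 780750 and 862731 bins were listed per sample, with 10958459 to 14436573 IP reads and 8453517 to 10161917 input reads, and no bin held fewer than 4 IP reads. Bins without any input read made up 9.69% to 29.2% of a list. Every value below rests on listed bins only, because reads elsewhere are unknown, and intervals cover counting error only. Of 8 melanoma cell markers, UACC-62 had exonic bins for 7 in each list and SK-Mel-103 for 3 (MITF, MLANA and SOX10). TYR, DCT, S100B and CSPG4 had no listed bin in SK-Mel-103, and PMEL had none in any list.

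The most bins with high IP reads in every sample came from the long 3′ UTRs of ZNF264, ZNF805 and ZNF772, which encode KRAB zinc-finger proteins and lie in the same stretch (chr19:57702868-57988938) near the end of the long arm, with other members between ZNF805 and ZNF772. The sequences shown first are the bins with the highest lowest-of-3 IP reads in ZNF264 (chr19:57726501-57726520, plus strand), ZNF772 (chr19:57982201-57982220, minus strand), ZNF805 (chr19:57767401-57767420, plus strand), ZNF121 (chr19:9673961-9673980, minus strand), ZNF426 (chr19:9637001-9637020, minus strand) and ZNF146 (chr19:36729621-36729640, plus strand). They are written as the transcript reads, from the GRCh37 reference, with every TGT in capitals because UGU is the core of the elements CELF1 is known to bind.
ZNF264: tagaattggTGTtattTGTt
ZNF772: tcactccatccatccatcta
ZNF805: tattaataagTGTtgaattt
ZNF121: gaattagagttagggccttg
ZNF426: tTGTtttaaattcccagtct
ZNF146: aTGTaatatgaaattaatct

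These 6 bins had no other place in the genome within 2 mismatches over 40 nt, the read length. The ZNF264 bin lies 2161 nt beyond the stop codon and held 80, 215 and 143 IP reads (SK-Mel-103, then UACC-62 replicates 1 and 3, the order used throughout) against 6, 10 and 5 input reads. The ZNF805 bin held 73, 58 and 71 IP reads against 3, 4 and 1. In contrast, the ZNF146 bin held 39, 32 and 37 IP reads against 64, 65 and 58 input reads, more input than IP in each sample. TGT stood in 4 of these bins and was missing from those of ZNF772 and ZNF121.

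GU-rich 7-mers (TGTTTGT and TGTGTGT, exact, on the transcript strand, overlapping matches counted) were then located near these bins. The following 30-nt stretches of 3′ UTR show the 7-mer in capitals and are those closest to the best bin of their gene, with the closest copy of each 7-mer for ZNF772, plus the GU repeat of ZNF428. They lie at chr19:57726316-57726345 (plus) in ZNF264, chr19:57982209-57982238 and chr19:57982337-57982366 (minus) in ZNF772, chr19:57767560-57767589 (plus) in ZNF805, chr19:9673832-9673861 (minus) in ZNF121 and chr19:44111534-44111563 (minus) in ZNF428.
ZNF264: atcattcccttTGTTTGTattttgttgagg
ZNF772: tgtccgtccatcTGTTTGTcactccatcca
ZNF772: catctgtctgtgTGTGTGTtgtctgtctgt
ZNF805: gagtataatttTGTTTGTgtactatgctac
ZNF121: tttcttattatgTGTGTGTtcactggagta
ZNF428: cgcccgtgtgtgTGTTTGTgtgtgtgtgtg

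The bin that holds the ZNF264 7-mer lies 180 nt from that gene's best bin and had 76, 203 and 130 IP reads against 6, 6 and 1 input reads. The TGTTTGT of ZNF772 borders that gene's best bin, with only its last base inside. The rest of it lies in the neighboring bin, which had 13, 37 and 14 IP reads against 0, 1 and 1. The TGTTTGT of ZNF805 fell in a bin listed in UACC-62 replicate 1 only, with 20 IP reads. A 7-mer thus stood in a strongly recovered bin in ZNF264 and in a sparsely listed one in ZNF805. ZNF426 and ZNF146 held 0 copies of either 7-mer in the 3′ UTR. ZNF428 held 21 in a 3′ UTR of 380 nt, and the bin of the stretch shown was listed in none of the samples.

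At least 1 7-mer stood in 53.5% of the members' 3′ UTRs (130 of 243), in 42.8% of those of all other protein-coding genes, in 56.7% of those of ZNF genes elsewhere, and in 25% of those of the other genes of chromosome 19. TGTTTGT alone was in 36.6% of the members' 3′ UTRs and in 27.6% of those of other genes, and TGTGTGT in 33.3% and 28.8%. The members' 3′ UTRs were longer (median 2160 against 1340 nt), and per kb the density was lower for both 7-mers, 0.208 against 0.219 for TGTTTGT and 0.336 against 0.462 for TGTGTGT. Within the members' 3′ UTRs, both together came to 0.492 per kb in bins that were not listed, 0.805 in bins listed in any sample and 0.840 in bins listed in every sample. TGTTTGT alone rose across these classes (0.204, 0.231 and 0.382), whereas TGTGTGT was highest in bins listed in any sample (0.289, 0.574 and 0.458). The last class held only 10 and 12 copies. Of its 1310 bins, 237 lay in ZNF264, 210 in ZNF805, 168 in ZNF121 and 164 in ZNF772. Its densities therefore rest largely on these genes and do not describe the members at large. All densities given here assign a 7-mer to the bin of its lowest coordinate. By that rule 2 of the 93 bins with more than 30 IP reads in all 3 samples held a 7-mer, but the one in ZNF772 shares only its last base with the bin, so that ZNF264 alone had a 7-mer centred in such a bin. The A+T content of the same classes was 59.6%, 59.9%, 61.0% and 63.0%.

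How many members were recovered was asked first. A 3′ UTR bin was listed in every sample for 125 of 243 members with an annotated 3′ UTR (51.4%, Wilson 95% interval 45.2 to 57.7), against a background of 46.4% of all 19285 genes with a 3′ UTR. A coding bin was listed in every sample for 95 of 245 members (38.8%, 32.9 to 45), against 41.2% of all genes. The members' shares were thus near the background in both regions. 76 members had bins of both kinds in every list, 49 only of the 3′ UTR, 19 only of the CDS, and 101 neither. 28 members had no bin of either region in any list. For these overlap counts the share over all genes was not computed, so they cannot be read as a trait of the members.

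Strong bins were scarcer. A 3′ UTR bin with more than 30 IP reads in all 3 samples was found in 7 members (2.88%, 1.40 to 5.83), against 8.52% of all genes. No member had such a bin in the CDS (0 of 245, which allows up to 1.54%), against 2.80% of all genes, and none of the 262 ZNF genes of other chromosomes had one either. The 7 members were ZNF264 with 30 such bins, ZNF772 with 22, ZNF805 with 20, ZNF121 with 14, ZNF426 with 5, and ZNF793 and ZNF146 with 1 each. 72 of the 93 bins therefore lay in ZNF264, ZNF772 and ZNF805. Without SK-Mel-103, 11 members had such a 3′ UTR bin and 2 a coding one, and without UACC-62 replicate 1 there was 1 member with a coding one.

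The scarcity of strong bins went with low read levels. Members had 3.66, 5.13 and 5.16 listed IP reads per kb of 3′ UTR, scaled to list totals of 1000000 reads, where all other protein-coding genes had 14.0, 15 and 16.0. Their input was lower by more, at 2.10, 1.87 and 2.12 against 11.9, 12.4 and 12.9. In a lysate, fewer cells with a transcript and fewer copies per cell cannot be told apart. In the members' CDS, IP levels were 1.97, 1.60 and 2.48 and input levels 1.92, 1.43 and 1.83 on the same scale.

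Recovery was next expressed as the log2 of IP over input, with the reads of a gene's listed bins divided by the total of their list and a pseudocount of 1 read. A value was given where IP and input reads together reached 20 in each sample, which held for 85 members in the 3′ UTR, 46 in the CDS and 38 in both. The median 3′ UTR value of members was 0.56, 0.33 and 0.56, and that of all other protein-coding genes was -0.12, -0.58 and -0.36. In the CDS the medians were 0.04, -0.20 and 0.22 for members against -0.55, -0.98 and -0.72. The members' 3′ UTR median thus lay above 0 in each sample, while their coding median lay near 0.

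Members exceeded other genes by 0.68, 0.91 and 0.92 in the 3′ UTR (UACC-62 0.91 ± 0.0049, SD, n = 2) and by 0.59, 0.78 and 0.94 in the CDS (0.86 ± 0.11). Each difference was positive in 3 of 3 samples, and an exact 2-sided sign-flip permutation test over samples gave p = 0.25, the smallest this design allows. Limiting the other genes to those inside the central range of the members' listed reads per kb left mean differences of 0.63 and 0.68. That range was 42.3 to 744 reads per kb in the 3′ UTR (3240 genes) and 112 to 1393 in the CDS (4025 genes). It is wide and counts IP with input reads, so levels were not matched gene by gene. The listed bins were themselves selected on IP reads, with none below 4, and the members' input per kb was lower. With bins of more than 10 and more than 30 IP reads, the mean 3′ UTR difference was 1.93 and 2.84. How far this selection raised the members' values, or their differences from other genes, was not tested. Against the other genes of chromosome 19 the differences were larger, 1.11, 1.43 and 1.33 in the 3′ UTR and 0.70, 0.90 and 0.88 in the CDS.

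The ZNF genes of other chromosomes gave values close to those of the members when all listed bins were used. The differences were larger under read filters, which left few members. Their 3′ UTR medians were 0.44, 0.30 and 0.45, and members stood 0.12, 0.03 and 0.11 above them (UACC-62 0.07 ± 0.06, SD, n = 2). When only bins without a second place in the genome were used for members, the mean difference was -0.0027. It was 0.98 with bins of more than 10 IP reads and 1.24 with more than 30. These filters select on the IP reads that enter the ratio. They left 28 and 8 members with a 3′ UTR bin in every list, and 11 with a coding bin at more than 10 reads. In the CDS, members stood 0.07, 0.16 and 0.06 above, a mean of 0.10 that became 0.68 with bins of more than 10 IP reads, 0.52 at a bin p-value of 0.01 and 0.58 at a minimum of 50 reads. With all listed bins, both differences gave p = 0.25 in the exact permutation test.

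**Figure D1:**
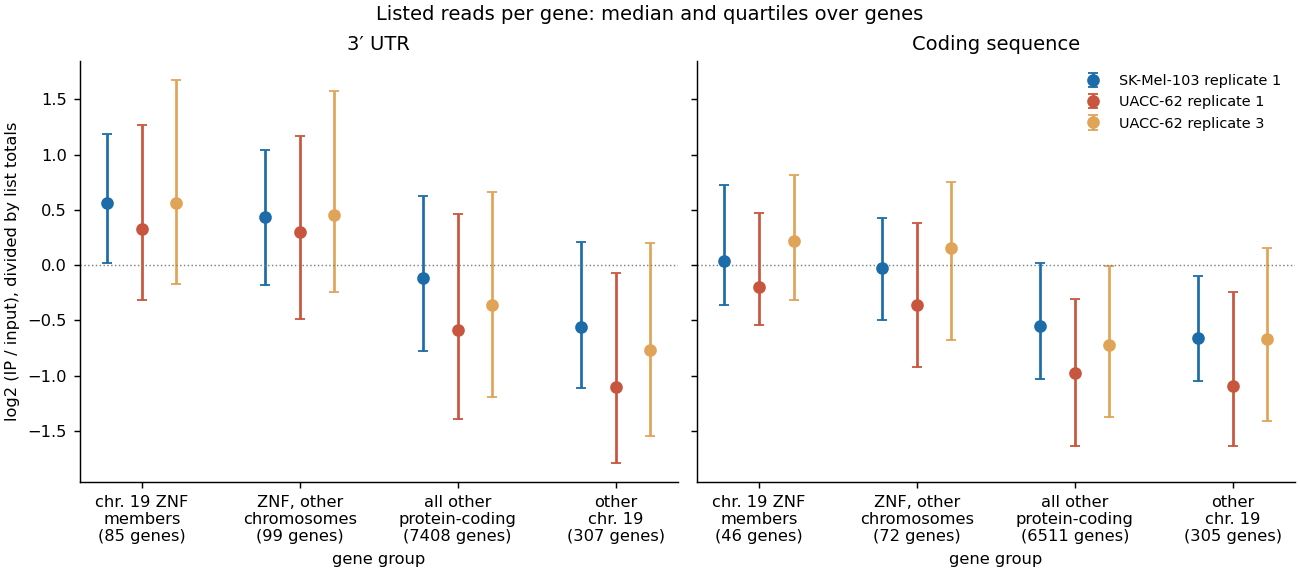
Median (points) and quartiles (bars) over genes of log2 IP over input, in 3′ UTR (left) and coding sequence (right), for chromosome 19 ZNF members, other ZNF genes, all other protein-coding genes and other chromosome 19 genes, with 1 color per sample. Both ZNF groups sit above the other groups, with member 3′ UTR medians of 0.33 to 0.56 against -0.58 to -0.12 for all other genes.

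Gene by gene, the 3′ UTR value was above 0 in every sample for 48 of 85 members (56.5%), against 30.9% of all 7493 genes with a value and 52.5% of the other ZNF genes. 14 members were below 0 in every sample. In the CDS, 14 of 46 members (30.4%) were above 0 throughout, against 11.8% of all genes and 31.9% of the other ZNF genes. There, 10 members were below 0 throughout. For both counts below 0, the share over all genes was not computed. Members with a KRAB pattern in their translated sequence (204 of 241) had 3′ UTR medians of 0.63, 0.40 and 0.64 over 71 genes. Members without it had 0.17, -0.42 and 0.01 over 12 genes.

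Few genes carried most of the reads. The 5 richest members of each sample held 55.4%, 68.1% and 59.8% of all member 3′ UTR IP reads. The log2 of summed member reads fell from 0.80, 1.46 and 1.28 to 0.26, 0.53 and 0.51 without them, still above 0 in each sample.

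ZNF264 (chr19:57702868-57734214, plus strand) was the richest member in every sample. Its 3′ UTR, annotated over 10120 nt, held 4081, 10499 and 9180 IP reads against 383, 692 and 441 input reads, log2 values of 3.04, 3.76 and 3.68 (UACC-62 3.72 ± 0.06). Its CDS held 518, 1265 and 1583 IP reads against 148, 258 and 158, log2 values of 1.43, 2.13 and 2.62. Both regions were enriched in every sample, the 3′ UTR by more. SK-Mel-103 was the lowest of the 3 samples in both.

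ZNF805 (chr19:57752000-57774096, plus strand), the paralog whose start lies 49.1 kb downstream of that of ZNF264, showed the same order. Its 3′ UTR held 3441, 7871 and 7337 IP reads against 333, 473 and 425 input reads (2.99, 3.90 and 3.41). Its CDS held 548, 1191 and 1584 against 135, 207 and 153 (1.64, 2.36 and 2.67). 56 of its 352 listed 3′ UTR bins also lie in exons of another gene on the same strand.

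ZNF772 (chr19:57978031-57988938, minus strand) held 2973, 4620 and 6225 3′ UTR IP reads against 467, 485 and 436 input reads (2.29, 3.09 and 3.13). It has no CDS value, because 3′ UTRs of its other transcripts cover part of the finger exon and were given precedence. Part of its coding sequence is therefore counted as 3′ UTR, as it is in other members. The strong bins of these 3 genes were spread widely rather than held in 1 place. They spanned 381 to 3681 nt past the stop codon in ZNF264, 399 to 2839 nt in ZNF805 and 371 to 3611 nt in ZNF772, and the longest unbroken run was 60 nt.

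ZNF121 (chr19:9671005-9695180, minus strand), which lacks the KRAB pattern, differed in having much input. Its 3′ UTR held 3645, 2644 and 5263 IP reads against 2243, 3056 and 2298 input reads, log2 values of 0.33, -0.37 and 0.50. Its CDS values were -1.0, -1.65 and -0.70, so that the 3′ UTR exceeded the CDS by 1.32, 1.29 and 1.2. Its 14 strong bins fell between 1205 and 2825 nt past the stop codon.

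ZNF426 (minus strand, chr19:9633899-9649321) was the most even across samples. Its 3′ UTR held 1212, 2312 and 3446 IP reads against 265, 580 and 596 input reads, and the log2 values were 1.81, 1.84 and 1.83. Its CDS gave 1.17, 0.75 and 0.96.

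ZNF146 (OZF), a protein made almost wholly of zinc fingers, had the lowest 3′ UTR values of all members. It held 913, 487 and 866 IP reads against 1878, 1825 and 1674 input reads, log2 values of -1.41, -2.06 and -1.65. Its CDS gave -1.56, -2.0 and -1.48. It thus held a strong bin although input exceeded IP in both regions of every sample.

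**Figure D2:**
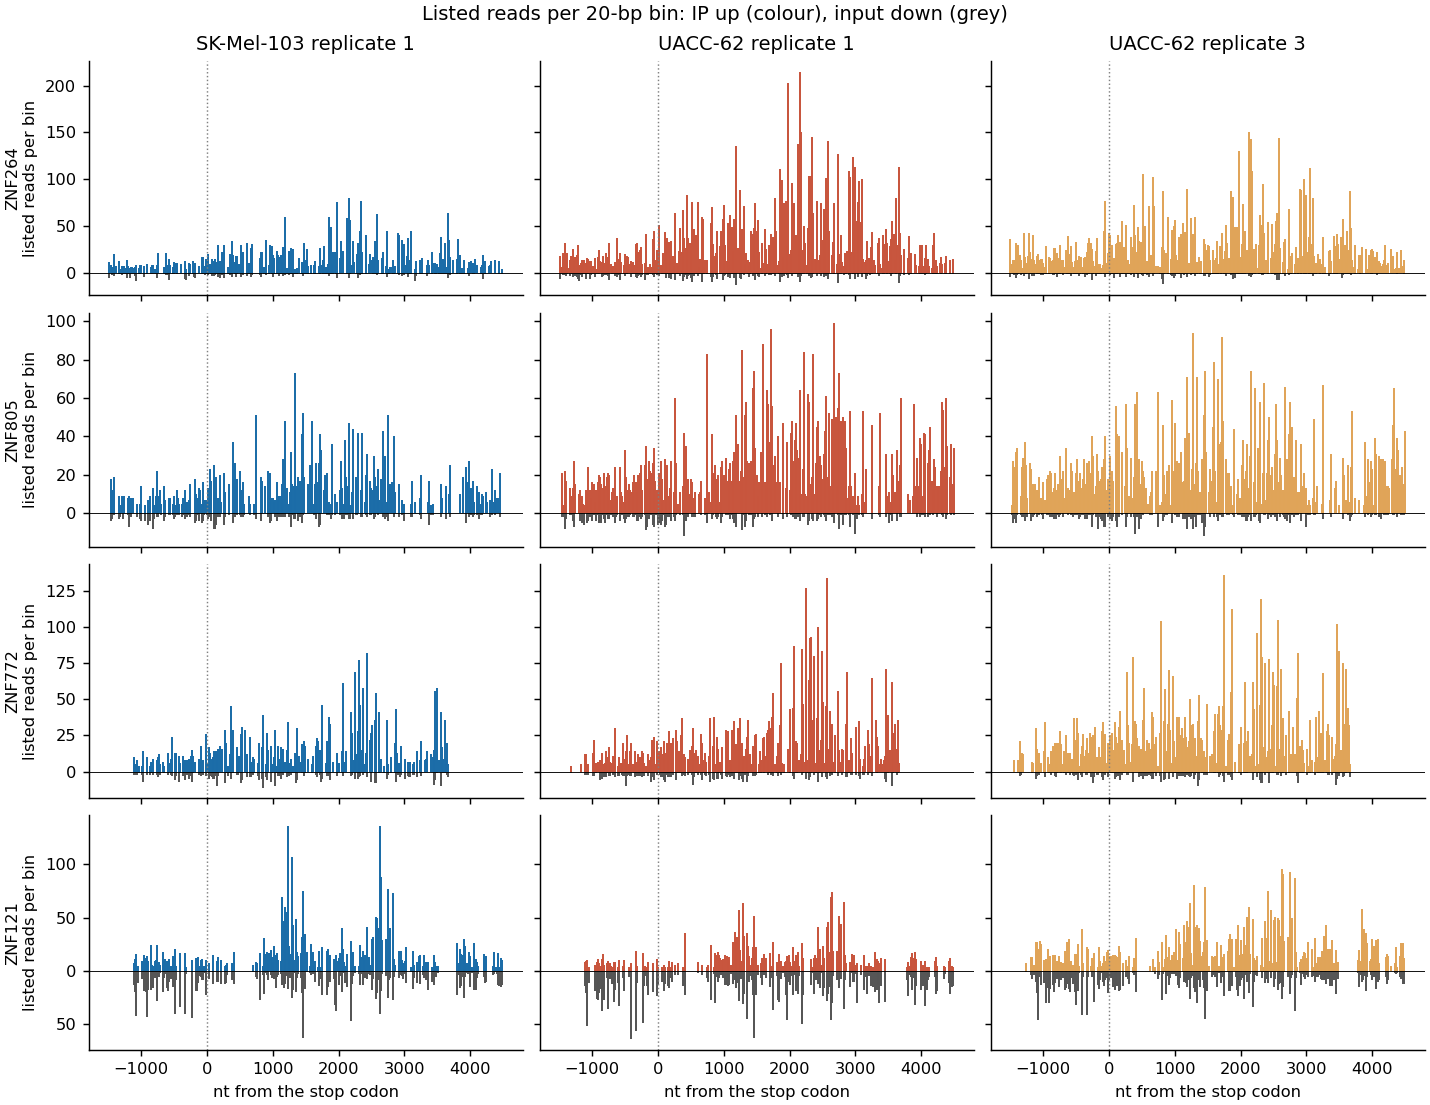
Listed reads per 20-bp bin along the transcripts of ZNF264, ZNF805, ZNF772 and ZNF121 (rows) in the 3 samples (columns), with IP drawn upward in color, input downward in grey, and the stop codon at 0 nt. In the top 3 genes input is nearly flat and low while IP rises beyond the stop codon, and ZNF121 has input of a height near its IP in the CDS.

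Other high 3′ UTR values rested on fewer reads. ZNF85 held 107, 66 and 62 IP reads against 14, 1 and 1 input reads (2.47, 4.91 and 4.28). ZNF585A held 24, 369 and 391 against 4, 24 and 25 (1.95, 3.73 and 3.22), with few reads in SK-Mel-103. ZNF428, which carries 1 recognized finger and the GU repeat shown above, held 32, 45 and 28 against 2, 4 and 3 (3.09, 3.04 and 2.16).

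ZNF490 held 356, 1253 and 1003 against 72, 123 and 95 (1.92, 3.18 and 2.69), but 81 of its 142 listed 3′ UTR bins also lie in another gene on the same strand. ZNF333 held 123, 47 and 65 against 37, 4 and 4 (1.33, 3.11 and 3.02). ZNF793 entered through 1 bin that has 2000 or more places within 2 mismatches, and all its 10 listed 3′ UTR bins have another place, so its reads cannot be assigned to this gene.

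The other low 3′ UTR values belonged to ZNF525 (-0.61, -1.94 and -1.17), ZNF787 (-0.45, -1.55 and -1.65), ZNF507 (-0.45, -0.86 and -0.84), ZNF471 (-1.06, -0.41 and -0.58), ZNF260 (-0.38, -0.48 and -1.0), ZNF569 (0.02, -1.10 and -0.49) and ZNF584 (-0.09, -1.12 and -0.28). Input exceeded IP after scaling in all 3 samples for each of them but ZNF569. All 8 listed 3′ UTR bins of ZNF471 and 10 of 13 of ZNF525 have another place in the genome.

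The 3′ UTR was then compared with the CDS of the same gene. Over the 38 members with both values, the median 3′ UTR minus CDS was 0.35, 0.77 and 0.44 on the log2 scale (UACC-62 0.61 ± 0.23, SD, n = 2). The 3′ UTR was higher in 3 of 3 samples (exact sign-flip permutation test, p = 0.25), and the mean over samples was 0.52, or 0.27 without UACC-62 replicate 1. Of the members' 5839 listed 3′ UTR bins, 597 (10.2%) are also coding in another transcript. With the coding region given precedence, the mean was 0.57. For all other protein-coding genes the median was 0.36, 0.33 and 0.27 over 5772 genes, and for other ZNF genes 0.41, 0.51 and 0.56 over 60. In SK-Mel-103 the members did not exceed other genes, and whether they did in UACC-62 was not tested.

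The 3′ UTR exceeded the CDS in every sample in 22 of 38 members (57.9%), against 50.9% of all 5810 genes with both values. The CDS exceeded the 3′ UTR throughout in 4 members (10.5%), against 15.1%. Both shares were near the background. Across these members, the 3′ UTR and CDS values rose and fell together (Spearman's rho 0.78, Pearson's r 0.86, n = 38 genes of the same libraries, a description only).

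The largest gaps in favor of the 3′ UTR were those of ZNF428 (3.07, 3.06 and 1.76), ZNF814 (1.17, 2.60 and 0.90), ZNF264 (1.61, 1.63 and 1.06), ZNF121 and ZNF805 (1.35, 1.54 and 0.74). ZNF428 had CDS values near 0 (0.02, -0.02 and 0.40) beside its high 3′ UTR values. In the opposite direction stood ZNF317 (-0.95, -0.58 and -1.49) and ZNF787 (-0.07, -1.09 and -1.07), and ZNF780B and ZNF180 were below 0 by less in each sample. ZNF45 gave 0.16, -0.18 and -0.95, without a constant sign.

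In terms of reads, the 3′ UTR share of all exonic reads of members was 74.4%, 83.5% and 76.7% in the IP and 61.8%, 66.0% and 63.3% in the input. For other protein-coding genes it was 73.1%, 78.7% and 76.7% in the IP and 54.6%, 54.6% and 56.4% in the input. The shift from input to IP was therefore present in members and in other genes, and it was smaller in members in each sample.

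Recovery also varied along the transcript. The log2 of summed member reads was -0.05, 0.07 and 0.28 in the last 500 nt before the stop codon and 1.63, 2.37 and 2.04 at 2000 to 3000 nt beyond it. The median over single members was 0.12, -0.10 and 0.21 before the stop codon (47, 36 and 54 members) and 0.81, 1.04 and 1.05 at 2000 to 3000 nt (29, 27 and 33 members). These medians cover different sets of members, since only those with a 3′ UTR that long enter the second. They do not follow the same member across the stop codon. Beyond 3000 nt the summed values were 0.98, 1.76 and 1.87. On the coding side they were higher again away from the stop codon, at 0.29, 0.49 and 0.75 between 1500 and 1000 nt before it. Within the 27 members with values for both stretches, the 3′ UTR beyond 1000 nt exceeded the first 1000 nt by a median of 0.27, 0.43 and 0.44 (exact sign-flip permutation test, p = 0.25). The share of bins that were listed rose too, from 7.91%, 6.12% and 10.6% before the stop codon to 11.3%, 13.9% and 16.3% beyond 3000 nt.

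**Figure D3:**
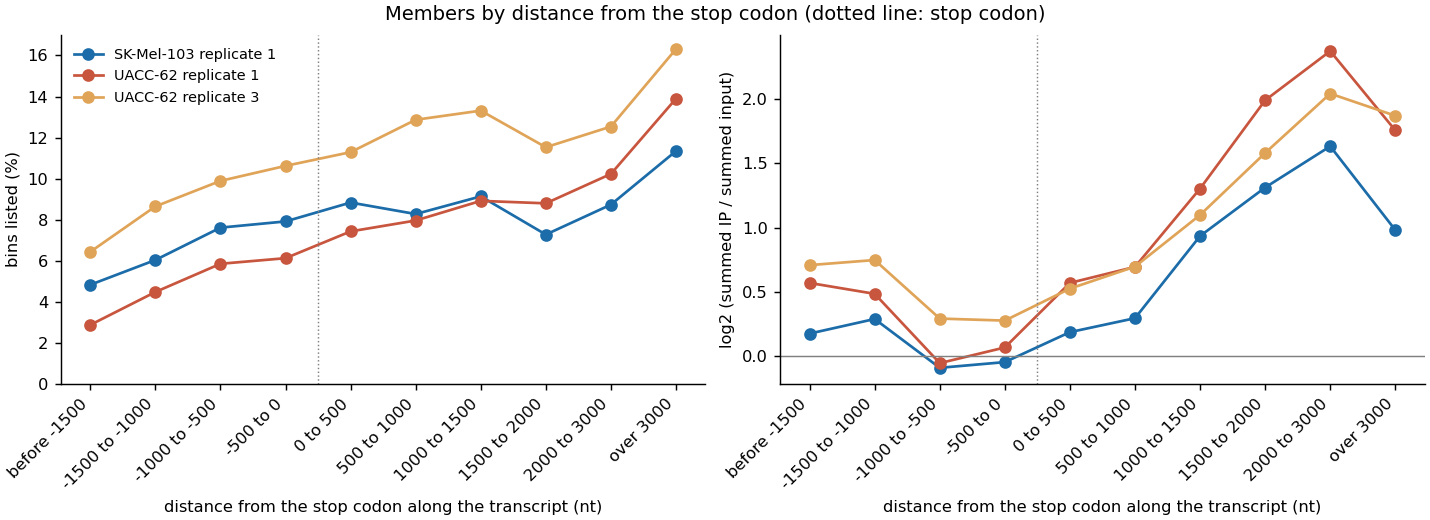
Share of member bins listed in percent (left) and log2 of summed IP over summed input (right) by distance from the stop codon along the transcript in nt, 1 line per sample, with the dotted line at the stop codon. All 3 samples climb from -0.05, 0.07 and 0.28 in the last 500 nt before the stop codon to 1.63, 2.37 and 2.04 at 2000 to 3000 nt past it, with 0.29, 0.49 and 0.75 at 1500 to 1000 nt before it.

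Inside the CDS, the last coding exon, which holds the fingers, was listed more densely than the earlier exons, at 7.33%, 5.44% and 9.76% of bins against 3.57%, 2.44% and 5.44%. Its summed log2 IP over input was no higher, at 0.01, 0.14 and 0.42 against 0.35, 0.30 and 0.57. Only 5 members had values for both, with a median difference of -0.47, -0.34 and 0.02 (exact sign-flip permutation test, p = 0.50), which turned to 0.23 without SK-Mel-103. The number of fingers tracked the CDS value weakly (Spearman's rho 0.19, n = 45). The 3′ UTR value was likewise only weakly related to 3′ UTR length (rho 0.20, n = 85), A+T content (-0.02) and 7-mers per kb (0.29), each as a description over genes of the same libraries.

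Between cell lines, the SK-Mel-103 3′ UTR value lay below both UACC-62 values for 33 of 85 members (38.8%) against 20.6% of all genes, and above both for 31 (36.5%) against 57.5%. The ZNF genes of other chromosomes were divided in a like way, with 35.4% below and 41.4% above both. With 1 SK-Mel-103 sample, no test of the cell lines was possible. The 2 UACC-62 replicates differed by a median of 0.28 per member in the 3′ UTR and 0.39 in the CDS. 3′ UTR bins were listed in both UACC-62 samples and not in SK-Mel-103 for 14 members, and the reverse held for 21. The share over all genes was not computed for these 2 counts, so they cannot be read as a trait of the members.

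Along the chromosome, members fell into 20 groups separated by gaps over 500 kb. The group at chr19:57702868-58992597, with 42 members and ZNF264, ZNF805 and ZNF772 among them, had 3′ UTR medians of 0.89, 0.65 and 0.92 over 18 genes with a value, 12 of them above 0 in all samples. The group at chr19:19779605-24312770, with 37 members, had 0.57, 0.83 and 1.49 over 10 genes, 9 of them above 0 throughout. The group at chr19:36673178-38307940 had 0.65, 0.47 and 0.81 over 12 genes. Lower medians of 0.48, -0.20 and -0.01 were found over 16 genes of the group at chr19:52074536-54083523, of which 5 were above 0 throughout.

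Shared sequence among paralogs bears on which gene a read is counted for. Each bin was extended to a 40-nt window and searched in the genome, and a bin was called shared when another place matched within 2 mismatches. In the 3′ UTR, 30.4% of bins that were not listed were shared, 23.1% of those listed in any sample (1350 of 5839, Wilson 95% interval 22.1 to 24.2), and 15.5% of those listed in every sample (13.6 to 17.6). In the CDS, the shares were 35.7%, 31.2% (877 of 2810, 29.5 to 32.9) and 29.0% (24.2 to 34.2). Shared bins were thus less frequent among listed bins, and the decline was larger in the 3′ UTR. Of the 1310 3′ UTR bins listed in every sample, 237 lay in ZNF264, 210 in ZNF805, 168 in ZNF121 and 164 in ZNF772. In these genes, 18.4%, 10.2%, 23.5% and 7.75% of all 3′ UTR bins, listed or not, were shared. The lowest 3′ UTR share therefore largely describes a few genes, and the intervals do not cover this. For exact copies, the shares in listed bins were 8.25% in the 3′ UTR and 9.50% in the CDS.

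The kind of shared sequence differed between regions. Of the shared listed bins of the CDS, 83.9% matched an exon of another member (736 of 877) and 95.3% another place on chromosome 19, with a median of 2 places. Of those of the 3′ UTR, 39.2% matched another member (529 of 1350) and 69.9% chromosome 19, with a median of 6 places. More than 20 places, as repeats give, were found for 9.39% of all listed 3′ UTR bins and 2.17% of listed coding bins.

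**Figure D4:**
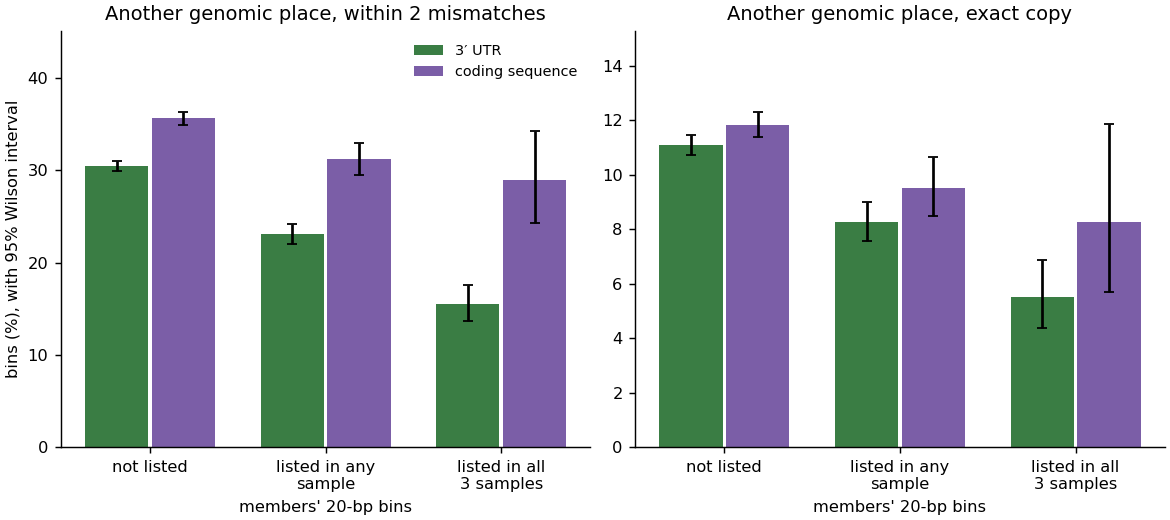
Percent of member bins (y) with another genomic place for their 40-nt window, within 2 mismatches (left) and as an exact copy (right), by whether the bin was not listed, listed in any sample or listed in all 3, for 3′ UTR (green) and coding sequence (purple) with 95% Wilson intervals. The 3′ UTR share falls from 30.4% to 15.5% within 2 mismatches, and the coding share from 35.7% to 29.0%.

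Shared bins held 16.0%, 14.7% and 15% of the members' 3′ UTR IP reads and 26%, 29.5% and 32.2% of those of the CDS. In the 3′ UTR, the log2 of summed IP over input was higher in bins with a single place (0.91, 1.57 and 1.36) than in shared bins (0.36, 0.94 and 0.90). In the CDS, it was lower in bins with a single place (0.01, 0.09 and 0.40) than in shared bins (0.11, 0.37 and 0.53). These sums are carried by a few rich genes. The median 3′ UTR minus CDS within members moved little when bins with a single place were used, from a mean of 0.52 to 0.56, and in UACC-62 replicate 3 it was 0.34 instead of 0.44. Of the 93 strong 3′ UTR bins, 7 had another place.

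In the 5 pairs of members with the most matching listed bins, gene starts lie 37.1 to 175.2 kb apart. ZNF417 and ZNF587, on opposite strands with starts 50.4 kb apart, had 156 such bins, 87 of them coding and 89 exact. ZNF561 and ZNF562 had 104, ZNF611 and ZNF808 had 77, ZNF600 and ZNF611 had 63, and ZNF264 and ZNF805 had 59, of which 57 were coding. For these pairs the reads of a shared bin could have come from either gene.

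Aligned bins of these pairs and the most recurrent coding bins show what is shared, with mismatches between paired bins in capitals. The pairs are ZNF417 (chr19:58419201-58419220, minus strand, 3′ UTR) with ZNF587 (chr19:58373842-58373861, plus strand, 3′ UTR), and the CDS of ZNF264 (chr19:57723761-57723780) with that of ZNF805 (chr19:57765063-57765082), both on the plus strand. Another pair sets a ZNF264 bin (chr19:57724341-57724360) against the CDS of ZNF805 (chr19:57766063-57766082). This ZNF264 bin spans the last coding bases, the stop codon and the first bases after it, and its centre places it in the 3′ UTR. The single sequences are coding bins of ZNF426 (chr19:9639201-9639220, minus strand) and ZNF146 (chr19:36727881-36727900, plus strand).
ZNF417: ttcctcactccaagctcttt
ZNF587: ttcctcactccaagctcttt
ZNF264, coding: tggaaaggccttcacccacT
ZNF805, coding: tggaaaggccttcacccacC
ZNF264, 3′ UTR: tcactgtgagaaaaccttct
ZNF805, coding: tcactgtgagaaaaccttct
ZNF426: gagaaaccctatgaatgcaa
ZNF146: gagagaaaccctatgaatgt

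The ZNF417 bin held 16, 13 and 18 IP reads, and the bins at the matching place in ZNF587 held 14, 0 and 9. The ZNF264 coding bin held 15, 21 and 28 IP reads against 8, 8 and 4 input reads, and the bins at its ZNF805 counterpart 14, 31 and 23 IP reads. The bin across the ZNF264 stop codon held 6, 24 and 42 IP reads, and the ZNF805 coding bins that it matches held 20, 32 and 46. The part of this sequence past the ZNF264 stop codon was thus 3′ UTR in ZNF264 and coding in ZNF805. Reads from the bin count toward a different region according to the gene.

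The ZNF426 coding bin recurred within 2 mismatches of its 40-nt window in 14 other members and held 4, 12 and 15 IP reads against 2, 4 and 3 input reads. It and the ZNF146 bin, which recurred in 11 other members, both contain gagaaaccctatgaatg, which spans part of the linker that joins successive fingers and the start of the next finger. The ZNF146 bin held 33, 18 and 36 IP reads against 65, 88 and 74 input reads. Neither bin had an exact second copy of its 40-nt window. IP stood above input in the ZNF426 bin and below it in the ZNF146 bin, as it did over the whole CDS of each gene.

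The proteins that KRAB zinc-finger proteins work with were examined as a list of 22 genes. 21 had a 3′ UTR bin in every list, against 46.4% of all genes. A 3′ UTR bin with more than 30 IP reads in all samples was found in 11, against 8.52%. Of the 19 with a 3′ UTR value, 7 were above 0 in all samples, against 30.9% of all genes with a value, and 10 below 0. Their medians were -0.16, -0.65 and -0.73, beside -0.12, -0.58 and -0.36 for all protein-coding genes other than members. In the CDS, 1 of 20 was above 0 throughout, against 11.8% of all genes, and 15 were below 0. Their coding medians were -0.80, -1.14 and -0.68, beside -0.55, -0.98 and -0.72 for all protein-coding genes other than members. The share below 0 over all genes was not computed. CBX3, an HP1 protein that reads histone methylation, had the highest mean of the 3 samples in the 3′ UTR (2.21, 2.65 and 2.07), followed by ATF7IP, the partner of the methyltransferase SETDB1 (1.83, 2.34 and 1.94). TRIM28, the scaffold bound by KRAB, had the lowest mean (-1.63, -1.90 and -1.87), followed by the histone-binding RBBP7 (-1.24, -2.17 and -1.81), which was the lower of both in UACC-62 replicate 1. The 3′ UTR medians of this list lay below those of the members in each sample.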

How the data were processed

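The RIP-seq lists of 3 IP samples were used, grouped by the sample labels. Per the submitters' processing notes, FastQC, TopHat2 2.0.4, Bowtie 0.12.7 and SAMtools 0.1.16 were run, and the methods name GRCh37 and the Piranha peak caller. Per listed 20-bp bin, the authors gave counts of whole IP reads that were not normalized. The methods called peaks at a set false discovery rate, and the lists do not say whether the deposited p-value of a bin is the corrected one. The last column, deposited by the authors, is a covariate ratio in whole steps, from which input reads were recovered, with 0.01 taken as none. No column was left unmapped (0).

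Bins were placed by their centre in exons of GENCODE version 44 on GRCh37, with 3′ UTR before CDS before 5′ UTR. The transcript strand was taken as the reverse of the listed one, under which 8856 listed member bins fell in exons against 361 as listed. 1 gene of this naming was not analysed here. Log2 values used a pseudocount of 1 read and a minimum of 20 reads. The KRAB pattern allowed 2 differences. Windows of 40 nt were searched with up to 2 mismatches and up to 2000 places, a limit that 2468 of 62120 windows reached, and windows at exon ends run into introns. Exact sign-flip permutation tests over 3 samples were 2-sided, and a p-value measures only the spread between these samples. No test across genes was run.

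Members, gene lists and comparisons were chosen with earlier results of these data known. Named members (31) are those with a strong bin common to all samples, the 8 highest and 8 lowest 3′ UTR values, the 5 largest and 5 smallest differences from 3′ UTR to CDS, and the 5 pairs with most matching bins. Up to 4 partner genes were named by the same values. Alternatives covered the read filter, bin p-value, shared-bin definition, region order, strand, unique bins, overlapping genes, symbol rule, pseudocount, scaling, minimum reads, bins without input and leaving out each sample. The comparison within the members' range of read level and the repeat of ZNF428 were added after the values had been seen. Scripts were tested on simulated data. Work was done in Python 3.11.15 with biopython 1.88, numba 0.67.0, numpy 2.4.6, matplotlib 3.10.9, scipy 1.17.1 and pandas 2.3.3.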

Additional observations from a re-analysis of the deposited data

How the results depend on the processing

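The differences between members and all other genes, and between members and other genes of chromosome 19, kept their direction under every alternative run. Of the differences recomputed, 2 reversed. The members' coding median, near 0 at 0.02, also fell slightly below 0 under some settings. It was -0.03 with the coding region first and -0.04 without bins lacking input. Many that kept their direction changed in size, as given here. Members with a 3′ UTR bin in every list went from 125 to 28 with more than 10 IP reads per bin, 8 with more than 30, 66 when the same bin had to be listed and 39 with the strand as listed, and were 134 to 143 on leaving out 1 sample. Those with a coding bin went from 95 to 11, 0, 32 and 1 under the same settings, to 62 at a p-value of 0.01, and were 100 to 113 on leaving out 1 sample. Members with a strong 3′ UTR bin went from 7 to 1 with the strand as listed and were 7 to 11 on leaving out 1 sample, and those with a strong coding bin were 0 to 2. The mean of the 3′ UTR medians, 0.48, became 1.70 and 3.22 under the read filters, 0.87 with the strand as listed, 0.89 with undivided reads and 0.27 without bins lacking input, and was 0.46 to 0.61 on leaving out 1 sample. The coding value, 0.02, became 0.29 with more than 10 reads per bin, 0.43 undivided and 0.23 at a minimum of 10 reads, and was -0.05 to 0.26 on leaving out 1 sample. Members minus other genes in the 3′ UTR, 0.83, became 1.93 and 2.84 under the read filters, and in the CDS 0.77 became 1.2 with more than 10 reads. The 3′ UTR minus CDS of members, 0.52, became 1.0 with more than 10 reads and was 0.27 to 0.70 on leaving out 1 sample. Members minus other ZNF genes in the 3′ UTR, 0.09, reversed to -0.0027 with unique bins and became 0.98 and 1.24 under the read filters. In the CDS, 0.10 became 0.68 with more than 10 reads, 0.52 at a p-value of 0.01 and 0.58 at a minimum of 50 reads. The last minus earlier coding exons, -0.26, was -0.40 to 0.23 on leaving out 1 sample, the positive value being without SK-Mel-103. The share of listed 3′ UTR bins with another place, 23.1%, became 15.3% and 8.31% under the read filters, 22.1% at a p-value of 0.01, 15.5% for the same bin in every list, 76.6% with the strand as listed and 8.25% for exact copies, and was 22.3% to 23% on leaving out 1 sample. For coding bins, 31.2% became 28.7%, 20.5%, 29.0% (same bin), 63.2% (strand as listed), 9.50% (exact) and 29.3% for symbols of digits only, and was 28.2% to 32.6% on leaving out 1 sample. The partner genes above 0, 7, became 0 with the strand as listed. Members with a 7-mer exceeded those without by 0.30 in the 3′ UTR, and by 0.0012 at a minimum of 50 reads, where UACC-62 replicate 1 gave -0.35. Coding values could not be computed with more than 30 IP reads per bin or with the strand as listed, where too few members had reads, and the exon comparison also lacked a value with more than 10. The cause of these changes was not tested. No paired analysis was possible because the cell lines share a single replicate number, while IP and input of the same replicate are already paired within every value. The comparison within the members' range of read level was chosen after seeing the data. Depth limits these results through low input, since many bins carry few or no input reads.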
